A study of Mus musculus with 6 samples.

Results

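The 10 genes described here are the steroid-making machinery of the Leydig cell and the genes that mark and govern it, measured in mouse testis after sedentary exposure. They were chosen by gene name, as the members of the androgen synthesis pathway from cholesterol import onward (Star, Cyp11a1, Fdx1, Cyp17a1, Hsd3b1, Hsd3b6 and Hsd17b3) together with the luteinizing hormone receptor Lhcgr, the Leydig cell hormone Insl3 and the transcription factor Nr5a1. They are 10 of the 44065 genes in the deposited table and 10 of the 19201 genes that passed the filter on low values, so every member was tested.

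Testis RNA freed of ribosomal RNA was sequenced from male C57BL/6 mice, aged 6 weeks at the start of an exposure that lasted 10 weeks. The sedentary group held 3 mice and the control group held 3 mice, each with 1 library, and the labels call them biological replicates. No genotype, transgene or drug is named for either group, and how sedentary behaviour was imposed is not given in the sources used here. A further group in which physical activity compensated for sedentary time is named in the design and was not analysed here. The title places the study around sperm DNA damage and testicular temperature, and the comparison described here is sedentary against control testis.

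Leydig cells lie between the seminiferous tubules and make testosterone from cholesterol under the control of luteinizing hormone. The hormone binds Lhcgr, which raises cyclic AMP, and the steroidogenic acute regulatory protein Star then moves cholesterol into the mitochondrion, the step that limits acute hormone output. Cyp11a1 cleaves the cholesterol side chain with electrons handed over by ferredoxin, Fdx1, after which the 3-beta-hydroxysteroid dehydrogenases, Cyp17a1 and Hsd17b3 complete the path to testosterone. Nr5a1, also called steroidogenic factor 1, is a nuclear receptor that binds the promoters of many of these genes.

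Whole reads recovered from the deposited values summed to 34176662 to 38148228 in the sedentary libraries and to 28495596 to 37654913 in the control libraries. The members had between 576 reads (Lhcgr) and 63691 reads (Insl3) over the 3 sedentary libraries, and between 672 reads (Lhcgr) and 62361 reads (Insl3) over the 3 control libraries. All pairs of libraries within a group differed beyond counting noise. Control replicate 3 stood apart for the members: it was the highest of all 6 libraries in 8 of the 10 genes, against 21.8% of all tested genes, and the highest control in 10 of 10, against 33.7%. Values without this library are therefore given beside those that it moves most. The testis label was met by the markers of its somatic cells, with Insl3 at 742.9 to 1178 FPKM (fragments per kilobase of gene length, scaled to library size) in the sedentary libraries and 827.5 to 1167 FPKM in the control libraries. Of 5 adrenal markers measured, Akr1b7 and Mrap passed the filter, and the enzymes Cyp11b1 and Cyp11b2 were at 0.114 to 0.295 FPKM in sedentary and 0.0776 to 0.644 FPKM in control libraries.

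Hsd3b1 and Hsd3b6 are close paralogs that lie near each other on the minus strand of chromosome 3, and how far reads can tell them apart bears on every value given for them below. The coding sequences of both genes in the GENCODE M21 annotation (GRCm38) are 1119 bases long and identical at 1007 bases, or 90.0%. The longest identical stretch was 72 bases. Of the windows of 50 bases in the Hsd3b1 transcript, 38 of 1806 (2.1%) also occurred in Hsd3b6, and of the windows of 150 bases none of 1706 did. The stretch of 90 coding bases shown here, from coding base 54 to 143, has 18 differing bases, which are in capitals. It was picked as the stretch of that length with the most differing bases, so the rest of the coding sequence is more alike. It lies at chr3:98857822-98857911 for Hsd3b1 and at chr3:98810904-98810993 for Hsd3b6 (GRCm38, minus strand, within 1 coding exon of each gene), and is written 5′ to 3′ on the coding strand.
Hsd3b1: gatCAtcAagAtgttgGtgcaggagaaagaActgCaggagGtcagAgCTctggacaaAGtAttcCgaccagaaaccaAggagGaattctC
Hsd3b6: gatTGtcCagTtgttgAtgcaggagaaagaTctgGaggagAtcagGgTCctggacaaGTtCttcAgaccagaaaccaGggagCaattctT

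Promoter windows, from 250 bases before to 50 bases after the start, were matched in RefSeq (GRCm38.p6) for 7 of the 10 members, with 2 windows for Cyp11a1, which has 2 annotated starts. These short motifs were searched on both strands: AGGTCA, the core element of many nuclear receptors; CAAGGTC, letters of the longer element that Nr5a1 can bind; and TATAA, the core of the TATA box. AGGTCA occurred in 16.3% of all 32851 promoter windows, CAAGGTC in 4.0% and TATAA in 24.9%. AGGTCA was found in a window of Cyp11a1 and in that of Lhcgr, CAAGGTC in that of Insl3, and TATAA in those of Cyp11a1, Insl3 and Fdx1. The windows of Hsd3b1, Hsd3b6 and Hsd17b3 held none of these letters. A window each of Cyp11a1 and Insl3 is shown because each holds a nuclear receptor motif and a TATAA match. In the Insl3 window the TATAA letters begin before the annotated start (offset -30), and in the Cyp11a1 window they begin after it (offset 17). Matches are in capitals, and TTATAA holds TATAA on both strands. The Cyp11a1 window is chr9:58014702-58015001 and the Insl3 window is chr8:71689002-71689301, both on the plus strand.
Cyp11a1: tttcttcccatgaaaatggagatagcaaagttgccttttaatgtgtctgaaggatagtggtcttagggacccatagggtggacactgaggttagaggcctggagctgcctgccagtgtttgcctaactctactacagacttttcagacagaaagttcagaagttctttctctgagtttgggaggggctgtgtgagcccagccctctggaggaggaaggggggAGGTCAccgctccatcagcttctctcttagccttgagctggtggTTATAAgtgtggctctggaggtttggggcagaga
Insl3: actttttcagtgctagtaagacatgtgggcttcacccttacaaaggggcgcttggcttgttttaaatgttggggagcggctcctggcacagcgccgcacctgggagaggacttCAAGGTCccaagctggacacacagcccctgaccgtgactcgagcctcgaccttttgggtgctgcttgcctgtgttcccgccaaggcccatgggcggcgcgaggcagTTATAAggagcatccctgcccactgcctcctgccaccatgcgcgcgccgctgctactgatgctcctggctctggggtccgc

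In the sedentary testes Star had a lower mean than in control testes. The fit on the reads called this difference and the main fit on FPKM did not, as given below. Most of the steroid enzymes also had lower means, with wide spread, while Insl3 and Fdx1 lay close to the control means. Star, the cholesterol transporter, averaged 0.604 times its control level. Cyp11a1, Hsd3b6, Hsd17b3 and Cyp17a1 averaged between 0.649 and 0.711 times control, Lhcgr and Nr5a1 0.820 and 0.871 times, and Hsd3b1 1.11 times. Of the 10 genes, 9 had a log2 fold change below 0, with a median of -0.32. Of all tested genes 47.8% did, with a median of 0.01. With the libraries scaled to equal FPKM sums, 9 of the 10 members lay below 0, with a median of -0.43. At that scaling 12786 of all 19201 tested genes did, with a median of -0.09. Without control replicate 3, on FPKM, 6 of the 10 members lay below 0, with a median of -0.13. In that setting 9267 of all 19201 tested genes did, with a median of 0.01. In a bulk sample, fewer Leydig cells and less RNA per Leydig cell cannot be told apart.

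Limma on log2(FPKM + 0.5) called 0 of the 10 genes at an adjusted p of 0.05, and 0.026% of all tested genes passed. On an unadjusted p under 0.05, 3 members passed on FPKM, all lower, against 17.4% of all tested genes at that level and 7.26% that were also lower. Limma's voom on the recovered reads called 1 of the 10 genes, Star, against 1.44% of all tested genes in either direction, 1.12% called lower and 0.318% called higher. At an unadjusted p under 0.05 on the reads, 5 members passed, all lower, against 20.2% of all tested genes, or 9.58% that were also lower. Without control replicate 3, the members that were lower at that level numbered 1 on FPKM, against 4.69% of all tested genes, and 3 on the reads, against 6.5%. The 3 sedentary values all lay below the 3 control values in 3 genes, Star, Hsd3b6 and Hsd17b3, against 10.8% of all tested genes; the reverse held in 0 members, against 13.7%, and either in 24.5%.

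**Figure D1:**
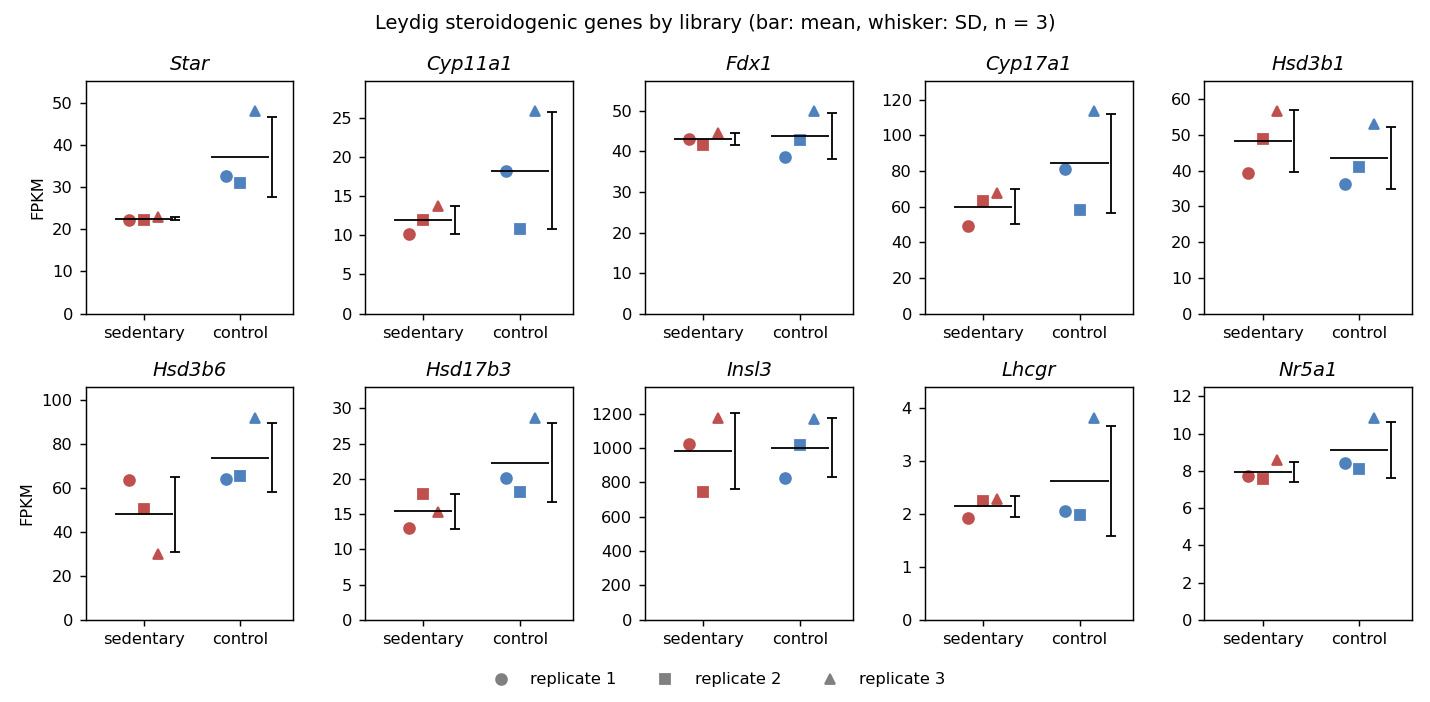
Level of each gene in FPKM (vertical axes, each from 0) in the 3 sedentary and 3 control libraries. Points are libraries, with a symbol for each replicate number, for which the labels state no pairing of animals. Bars are means and whiskers SD. Star, Hsd3b6 and Hsd17b3 are the panels in which the groups do not overlap, and control replicate 3 is the highest control in all 10.

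Star is the gene that brings cholesterol to the inner mitochondrial membrane. In the table it is MGP_C57BL6NJ_G0033981, chromosome 8, bases 24846689 to 24852858, plus strand. The deposited table's genome build is not settled by the sources, and 0 of the 10 members had the start and end that RefSeq gives on GRCm38. Star had 22.3, 22.2 and 22.9 FPKM in sedentary replicates 1, 2 and 3, against 32.5, 31.0 and 48.0 FPKM in control replicates 1, 2 and 3. The sedentary values lay within 1 FPKM of each other and all below the lowest control, while control replicate 3 was far above the other controls. The means were 22.5 ± 0.359 FPKM in sedentary and 37.2 ± 9.40 FPKM in control testes (SD, n = 3 each), with a coefficient of variation of 1.6% and 25.3%. The log2 fold change was -0.69 with a standard error of 0.15 and a 95% interval of -1.03 to -0.34 on FPKM, and limma's adjusted p was 0.199. On 6573 sedentary and 10449 control reads, the voom log2 fold change was -0.70, at an adjusted p of 0.0148. Without control replicate 3, the log2 fold change was -0.49 on FPKM (limma, adjusted p 0.223) and -0.50 on the reads (voom, adjusted p 0.0272). The voom call was lost without sedentary replicate 3, at an adjusted p of 0.0849, although the log2 fold change was then -0.71. It held in 11 of the 12 other settings on the reads, over which the adjusted p ran from 0.000425 to 0.0849. On FPKM, limma called Star in none of the 14 other settings, with an adjusted p of 0.109 to 0.39.

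Cyp11a1 encodes the cytochrome P450 that cleaves the cholesterol side chain and so makes pregnenolone, the first steroid of the pathway. It had 10.1, 12.0 and 13.7 FPKM in sedentary testes and 18.2, 10.8 and 25.8 FPKM in control testes. The groups overlapped, because control replicate 2 fell between the sedentary values. The means were 12.0 ± 1.80 FPKM in sedentary and 18.3 ± 7.51 FPKM in control testes (SD, n = 3 each), and the log2 fold change was -0.52 with a standard error of 0.27 (limma, adjusted p 0.349, 95% interval -1.13 to 0.10). It was -0.23 without control replicate 3 and -0.84 without control replicate 2. On the reads, voom gave an adjusted p of 0.135 with all libraries, 0.519 without control replicate 3 and 0.00045 without control replicate 2. The voom fit without control replicate 2 called 1058 of all tested genes, against 277 with all libraries. The lincRNA Gm17322 overlaps Cyp11a1 on the same strand over 1041 bases, at 0.109 to 0.171 FPKM in sedentary and 0.181 to 0.275 FPKM in control libraries.

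Fdx1 encodes the mitochondrial ferredoxin that carries electrons to Cyp11a1. It had 43.0, 41.6 and 44.5 FPKM in sedentary testes, and 38.6, 42.9 and 49.9 FPKM in control testes. All 3 sedentary values lay between the lowest and the highest control. The means were 43.0 ± 1.43 FPKM in sedentary and 43.8 ± 5.68 FPKM in control testes (SD, n = 3 each). The log2 fold change was -0.02 with a standard error of 0.10 (limma, adjusted p 0.942), and its 95% interval ran from -0.24 to 0.21.

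Cyp17a1 carries out the 17-alpha-hydroxylase and 17,20-lyase reactions in the endoplasmic reticulum. It had 49.2, 63.1 and 67.8 FPKM in sedentary testes and 81.3, 58.3 and 113.4 FPKM in control testes. As for Cyp11a1, control replicate 2 fell among the sedentary values and control replicate 3 was the highest library. The log2 fold change was -0.45 with a standard error of 0.22 (limma, adjusted p 0.331, 95% interval -0.96 to 0.06), on means of 60.0 ± 9.68 FPKM in sedentary and 84.4 ± 27.7 FPKM in control testes (SD, n = 3 each). It was -0.21 without control replicate 3 and -0.69 without control replicate 2. The voom adjusted p on the reads was 0.127 with all libraries, 0.509 without control replicate 3 and 0.00382 without control replicate 2.

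**Figure D2:**
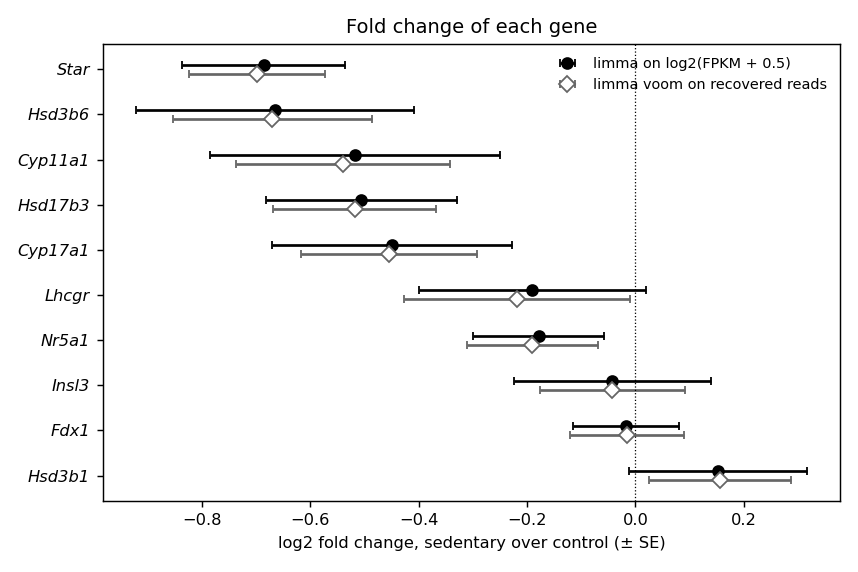
Log2 fold change of each gene, sedentary over control, on FPKM (limma, filled circles) and on recovered reads (limma voom, open diamonds). Whiskers are standard errors, and the dotted line marks no difference. Star is at -0.69 on FPKM and -0.70 on the reads, and Hsd3b1 is the single gene above 0, at 0.15 and 0.16.

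The 3-beta-hydroxysteroid dehydrogenases turn pregnenolone and related steroids into their delta-4 forms. Mouse Leydig cells express the isozymes encoded by Hsd3b1 and Hsd3b6, and the Hsd3b6 form is typical of the adult cell. Hsd3b6 had 63.5, 50.6 and 29.8 FPKM in sedentary testes, against 64.1, 65.5 and 92.1 FPKM in control testes. The groups did not overlap, though sedentary replicate 1 lay just under control replicate 1, and the sedentary libraries were spread more widely than those of any other member. The means were 48.0 ± 17.0 FPKM in sedentary and 73.9 ± 15.8 FPKM in control testes (SD, n = 3 each), and the log2 fold change was -0.66 with a standard error of 0.26 (limma, adjusted p 0.252, 95% interval -1.25 to -0.08). It was -0.36 without sedentary replicate 3 and -0.50 without control replicate 3, and voom on the reads gave an adjusted p of 0.0660.

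Hsd3b1 went the other way in its means. It had 39.3, 48.9 and 56.6 FPKM in sedentary testes and 36.2, 41.0 and 53.2 FPKM in control testes. The groups overlapped, and replicate 3 was the highest library of each. The means were 48.3 ± 8.65 FPKM in sedentary and 43.5 ± 8.74 FPKM in control testes (SD, n = 3 each), and the log2 fold change was 0.15 with a standard error of 0.16 (limma, adjusted p 0.658, 95% interval -0.22 to 0.53).

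The balance between these isozymes was looked at after their values had been seen. The ratio of Hsd3b6 to Hsd3b1 FPKM was 1.61, 1.04 and 0.526 in sedentary testes, against 1.77, 1.60 and 1.73 in control testes. The control ratios were close together, sedentary replicate 1 lay between them, and sedentary replicate 3 was the library in which Hsd3b1 exceeded Hsd3b6. The difference of the log2 ratios was -0.82, with an exact two-sided permutation p of 0.2, where 3 against 3 libraries cannot go below 0.1. It was -0.39 without sedentary replicate 3. The summed level of both genes was 102.8, 99.5 and 86.4 FPKM in sedentary testes and 100.3, 106.5 and 145.3 FPKM in control testes. The sums overlapped, as sedentary replicate 1 exceeded control replicate 1. Hsd3b6 made up 61.7%, 50.9% and 34.5% of that sum in sedentary libraries, against 63.9%, 61.5% and 63.4% in control libraries.

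**Figure D3:**
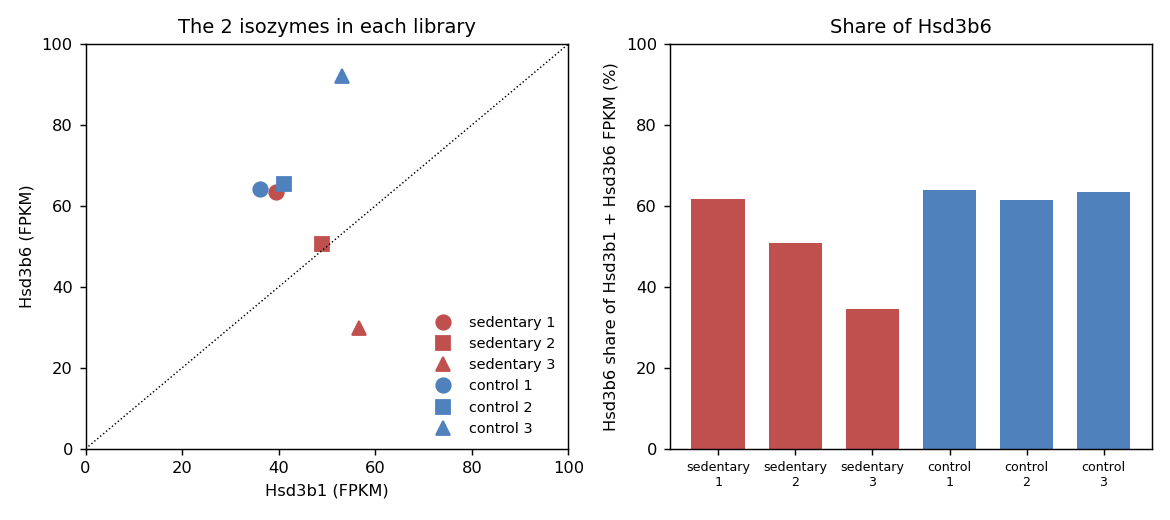
Left, Hsd3b6 against Hsd3b1 in FPKM for each library, with a dotted line of equal levels. Right, the share of Hsd3b6 in the summed FPKM of both genes, in percent; each bar is 1 library. The control shares lie between 61.5% and 63.9%, and sedentary replicate 3 is at 34.5%.

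Hsd17b3 reduces androstenedione to testosterone, the last step in the testis. It had 13.0, 17.9 and 15.2 FPKM in sedentary testes, against 20.1, 18.1 and 28.7 FPKM in control testes. The groups did not overlap, but sedentary replicate 2 and control replicate 2 nearly met. The means were 15.4 ± 2.48 FPKM in sedentary and 22.3 ± 5.63 FPKM in control testes (SD, n = 3 each), and the log2 fold change was -0.51 with a standard error of 0.18 (limma, adjusted p 0.223, 95% interval -0.91 to -0.10). It was -0.31 without control replicate 3. On 2091 sedentary and 2900 control reads, voom gave an adjusted p of 0.0748.

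Insl3 is the hormone by which Leydig cells drive descent of the fetal testis, and it marks mature Leydig cells in the adult. It had 1026, 742.9 and 1178 FPKM in sedentary testes and 827.5, 1016 and 1167 FPKM in control testes. The groups overlapped over most of their range, with the lowest and the highest library both sedentary. The means were 982.3 ± 220.8 FPKM in sedentary and 1003 ± 170.1 FPKM in control testes (SD, n = 3 each). The log2 fold change was -0.04 with a standard error of 0.18 (limma, adjusted p 0.925), and its 95% interval ran from -0.46 to 0.37. Jak3 overlaps Insl3 on the same strand over 1011 bases, at 2.51 to 3.47 FPKM in sedentary and 2.75 to 3.06 FPKM in control libraries.

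Lhcgr, the receptor for luteinizing hormone, was the lowest member, at 1.91, 2.24 and 2.28 FPKM in sedentary testes and 2.05, 1.98 and 3.81 FPKM in control testes. The groups overlapped, and control replicate 3 was alone above the rest. The log2 fold change was -0.19 with a standard error of 0.21 (limma, adjusted p 0.663, 95% interval -0.67 to 0.29), and it was 0.07 without control replicate 3. The means were 2.14 ± 0.199 FPKM in sedentary and 2.61 ± 1.04 FPKM in control testes (SD, n = 3 each).

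Nr5a1 had 7.71, 7.54 and 8.58 FPKM in sedentary testes and 8.41, 8.09 and 10.9 FPKM in control testes. The groups overlapped, as sedentary replicate 3 exceeded control replicates 1 and 2. The means were 7.95 ± 0.557 FPKM in sedentary and 9.12 ± 1.52 FPKM in control testes (SD, n = 3 each), and the log2 fold change was -0.18 with a standard error of 0.12 (limma, adjusted p 0.461, 95% interval -0.45 to 0.10). It was -0.05 without control replicate 3. Nr5a1 is also expressed by Sertoli cells, so its level in whole testis is not that of Leydig cells alone.

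**Figure D4:**
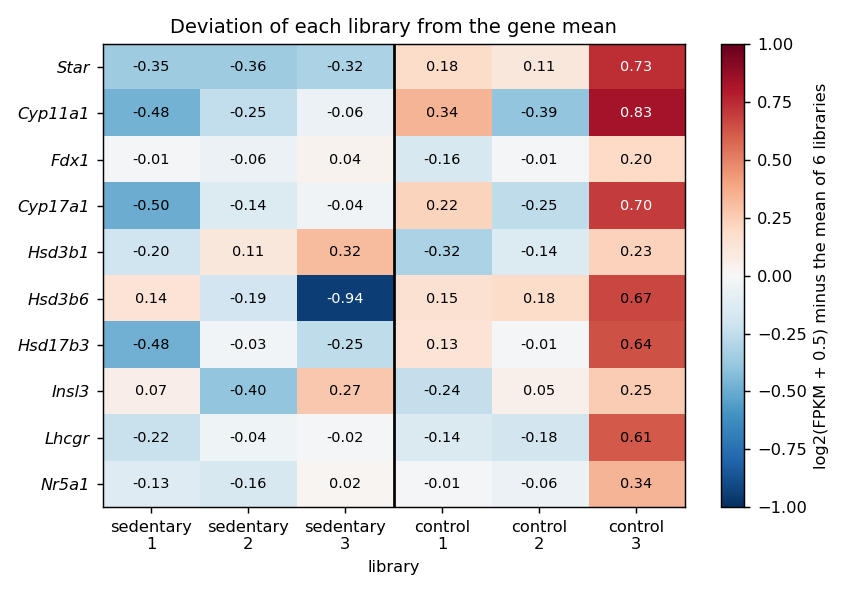
Deviation of each library from the mean of the 6 libraries, on the scale of log2(FPKM + 0.5), by gene (rows) and library (columns); the colour bar gives the scale. Control replicate 3 is the highest column for 8 genes, and the lowest single value is that of Hsd3b6 in sedentary replicate 3, at -0.94.

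By mean FPKM, which is scaled to gene length, Insl3 stood first in both groups and Lhcgr last. In sedentary testes the order was Insl3, Cyp17a1, Hsd3b1, Hsd3b6, Fdx1, Star, Hsd17b3, Cyp11a1, Nr5a1 and Lhcgr. The ranges of neighbours overlapped from Cyp17a1 through Fdx1 and between Hsd17b3 and Cyp11a1, and were separate at the other steps. In control testes Hsd3b6 and Fdx1 stood before Hsd3b1, and the order was otherwise that of the sedentary testes. There the ranges of Cyp17a1 and Hsd3b6 overlapped, as did those from Fdx1 through Star and from Hsd17b3 through Nr5a1. Star was thus separate from Fdx1 and Hsd3b1 in sedentary libraries, where all 3 of its values lay below theirs, and overlapped Hsd3b1 in control libraries.

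Star was also set against each of the other 9 members within a library, which takes out what a library's scaling does to both genes alike. Star had the lowest fold change of the 10 genes, which fixes the direction of these ratios. Its own groups did not overlap, so a separation of the ratios draws in part on the same Star values. How often ratios of other genes separate was not counted, and the ratios are descriptions. The sedentary ratios all lay below the control ratios for 5 partners, namely Hsd3b1, Insl3, Lhcgr, Nr5a1 and Fdx1, and did so for 5 without control replicate 3. For these 5 the difference in log2 ratio without that library ran from -0.80 with Hsd3b1 to -0.44 with Nr5a1. The ratio of Star to Fdx1 was 0.517, 0.535 and 0.515 in sedentary testes, against 0.843, 0.722 and 0.962 in control testes. The sedentary ratios were nearly alike and lay below every control ratio. The ratio of Star to Nr5a1 averaged 2.83 ± 0.149 in sedentary and 4.04 ± 0.328 in control testes (SD, n = 3 each). For each of the 5 partners the exact two-sided permutation p was 0.1, the smallest that 3 against 3 libraries allow, and 0.18 after Benjamini-Hochberg adjustment over the 9 ratios. Against the enzymes Cyp11a1, Cyp17a1, Hsd17b3 and Hsd3b6 the groups overlapped. With Hsd3b6 as partner the ratio was 0.519 ± 0.220 in sedentary and 0.501 ± 0.0248 in control testes (SD, n = 3 each, exact permutation p = 1.0), and the difference in log2 ratio was -0.02 with all libraries and 0.01 without control replicate 3.

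The lists that follow were chosen by name around the pathway, and their counts are descriptions. Their levels are those of whole testis, in which the part of Leydig cells was not measured. Genes that supply cholesterol numbered 14, of which 9 lay below 0 and 5 above 0 in log2 fold change, with a median of -0.05 and 0 calls by either fit; without control replicate 3 the split was 5 and 9. Among them Lipe, the hormone-sensitive lipase, was at 101.5 ± 4.02 FPKM in sedentary and 85.7 ± 5.68 FPKM in control testes (SD, n = 3 each, limma, adjusted p 0.208). Of 8 electron transfer genes 6 lay below 0, with a median of -0.04 and 0 calls. The median was -0.01 without control replicate 3. Groups did not overlap for Cyb5r1, a cytochrome b5 reductase, which was higher at 7.18 ± 0.849 FPKM in sedentary and 5.63 ± 0.534 FPKM in control testes (SD, n = 3 each, limma, adjusted p 0.221). They did not overlap for Pgrmc1, a heme-binding membrane protein, which was lower at 63.4 ± 0.982 FPKM in sedentary and 74.8 ± 6.99 FPKM in control testes (SD, n = 3 each, limma, adjusted p 0.223). Of 13 other steroid enzymes 8 lay below 0, with a median of -0.08 (-0.04 without control replicate 3), and Hsd17b11, a dehydrogenase of lipid droplets, fell on the reads. It had 4.05 ± 0.167 FPKM in sedentary and 5.83 ± 0.795 FPKM in control testes (SD, n = 3 each), and its log2 fold change on FPKM was -0.47 (limma, adjusted p 0.199; voom on the reads, adjusted p 0.0433). Its voom log2 fold change was -0.41 without control replicate 3, against -0.52 with all libraries, and the call was lost (adjusted p 0.213).

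The 22 genes of the cyclic AMP signal downstream of Lhcgr were evenly divided in whole testis, 11 below and 11 above 0. The split was 15 and 7 with the libraries scaled to equal FPKM sums. Their median was 0.00, with 0 calls. It is not a reading of the signal in Leydig cells alone. The kinase subunit Prkar2a had 55.4 ± 1.80 FPKM in sedentary and 47.3 ± 4.33 FPKM in control testes (SD, n = 3 each, limma, adjusted p 0.236). Of 25 regulators of steroidogenic genes 17 lay below 0, with a median of -0.13 (-0.07 without control replicate 3), and 4 fell on the reads (Fos, Egr1, Sp1 and Pdgfra) and 0 rose. Fos and Egr1, immediate early transcription factors, had 0.345 ± 0.129 and 1.40 ± 0.347 FPKM in sedentary testes, against 1.04 ± 0.0803 and 2.76 ± 0.837 FPKM in control testes (SD, n = 3 each). Their groups did not overlap, and the adjusted p by voom was 0.0172 for Fos and 0.0285 for Egr1. Sp1, a general transcription factor, had 4.87 ± 0.194 FPKM in sedentary and 6.66 ± 0.727 FPKM in control testes (SD, n = 3 each, voom, adjusted p 0.0340). Nr0b1, also called Dax1, a repressor of Nr5a1 activity that Sertoli cells also express, was at 11.4 ± 1.36 FPKM in sedentary and 8.69 ± 0.230 FPKM in control testes (SD, n = 3 each). The groups did not overlap, and the voom adjusted p was 0.0834. With control replicate 3 left out, Fos alone of these 25 was called on the reads, at a voom adjusted p of 0.0451, and Egr1, at 0.0558, had a log2 fold change of -1.0, against -0.95 with all libraries.

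Markers of the cell types of the testis were read beside the pathway. Of 19 tested Leydig cell markers outside the 10 members, 19 lay below 0, with a median of -0.29, and control replicate 3 was the highest library in 18. Without that library 17 of 19 lay below 0, with a median of -0.13. The summed level of all 24 such markers in the data, tested or not, was 1047 to 1245 FPKM in sedentary and 1191 to 1581 FPKM in control libraries. Aldh1a1, a retinaldehyde dehydrogenase, had 169.5 ± 3.93 FPKM in sedentary and 236.6 ± 62.3 FPKM in control testes (SD, n = 3 each, voom, adjusted p 0.0644), and Prlr, the prolactin receptor, fell on the reads (voom, adjusted p 0.0466). The voom log2 fold change of Prlr was -0.47 without control replicate 3, against -0.73 with all libraries, and the call was lost (adjusted p 0.217).

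Of 18 Sertoli cell markers 18 lay above 0, with a median of 0.33, or 0.22 with the libraries scaled to equal FPKM sums, and 17 did so without control replicate 3, with a median of 0.27. Their summed level was 995.0 to 1154 FPKM in sedentary and 794.8 to 878.6 FPKM in control libraries, and 4 of them rose on the reads, Defb36, Cst9, Amhr2 and Gstm6. Their voom log2 fold changes were 0.35 to 0.50 with all libraries and 0.32 to 0.49 without control replicate 3. None of the 4 was called without that library, in a fit that called 42 genes in all, against 277 with all libraries. Of 8 peritubular markers 7 lay below 0, with a median of -0.32 (-0.21 without control replicate 3). The sum of all 8 was 259.8 to 293.3 FPKM in sedentary and 252.3 to 273.6 FPKM in control libraries. That sum did not follow the 7 markers below 0. The 1 marker above 0 was higher in sedentary testes, without overlap of the groups. Of 10 tested macrophage markers 3 lay below 0, with a median of 0.24 (0.46 without control replicate 3). The sum of all 11 in the data was 42.1 to 59.5 FPKM in sedentary and 27.6 to 58.7 FPKM in control libraries. Of 6 tested endothelial markers 5 lay below 0, with a median of -0.12 (-0.06 without control replicate 3). The sum of all 12 in the data was 7.86 to 11.3 FPKM in sedentary and 9.56 to 10.9 FPKM in control libraries. The part of these cell types in the results for the 10 genes was not tested.

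**Figure D5:**
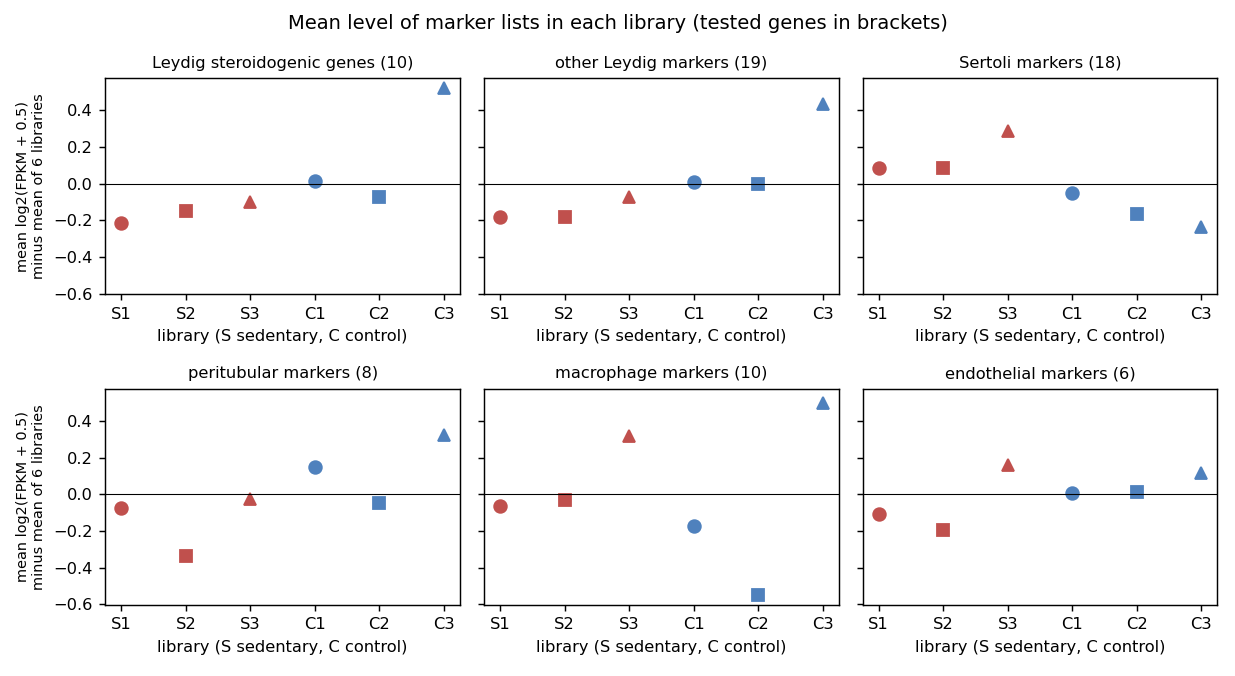
Mean of log2(FPKM + 0.5) over the tested genes of each list, minus its mean over the 6 libraries, by library (S sedentary, C control). The 10 Leydig steroidogenic genes and the other Leydig markers are both highest in control replicate 3, at 0.52 and 0.43, where the Sertoli markers are lowest, at -0.24, and the macrophage markers highest, at 0.50.

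The genes whose levels ran most like Star over the 6 libraries were ranked by Pearson's r on log2(FPKM + 0.5) among 16542 genes, which share libraries and depth. The 5 nearest were 2 unannotated loci, at 0.9996 and 0.997, a gene known by its identifier MGP_C57BL6NJ_G0029532, at 0.999, and Fads3 and Retsat, at 0.998 and 0.997. Fads3 had 0.990, 1.03 and 1.01 FPKM in sedentary testes, against 1.39, 1.37 and 1.93 FPKM in control testes. As with Star, the sedentary values were close together and control replicate 3 was the highest library. Of the other members Hsd17b3 was nearest to Star, with an r of 0.914 and rank 470, followed by Nr5a1 at 0.866, Cyp17a1 at 0.846 and Cyp11a1 at 0.834. Insl3 and Hsd3b1 were farthest, at 0.312 and 0.0476. Without control replicate 3 the r over 5 libraries was 0.993 for Fads3 and 0.991 for Retsat, and for the members it ran from -0.64 (Hsd3b1) to 0.729 (Hsd17b3). Fads3 and Retsat had been picked by their r over libraries that include these 5, and the members had not. The values of Fads3 and Retsat are therefore no separate check of their likeness to Star. The mean standardized profile of the 10 members ran most like 1 unannotated locus, Utrn, Msn, Gpt2 and Trim25, at 0.986 to 0.993 among 16533 genes.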

How the data were processed

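The authors deposited FPKM values for 44065 genes in 6 libraries, with a length (in bases, unit other) for each gene. HISAT2, StringTie and DESeq2 are the tools, and mm10 and mm39 the builds, that appear in the submitters' processing notes; neither version, role nor strand use is given there. FPKM times length gave whole reads for 100% of values (tolerance 0.001).

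The main test was limma 3.58.1 (R 4.3.3, moderated, trended prior, two-sided) on log2(FPKM + 0.5), for genes that reached 0.5 FPKM in 3 or more libraries, with Benjamini-Hochberg adjustment over 19201 genes and a threshold of 0.05. The second was voom, also in limma, run on those reads with library totals implied by the deposited values. Fold changes on the first scale understate those of low genes. Tested on simulated data for this comparison over 19201 genes, the FPKM test found 41% of 1.5-fold and 89% of 2-fold changes. Voom found 71% and 95%. Of the calls, 9 of 139 on FPKM and 8 of 174 by voom were false. The simulation gave all genes the same spread between libraries and held no library that stood apart. These shares may therefore not hold for the members, whose controls were spread widely. Ratios used an exact permutation test (SciPy 1.17.1), and coding sequences were aligned with Biopython 1.88.

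The members and lists were chosen with earlier results of these data known. Named genes were all members, up to 4 per list by lowest unadjusted p on FPKM (the text describes part of them), calls on the reads, and the 5 genes most like Star or the mean profile. Alternatives changed the pseudocount, filter, scaling, weights, replicate block, GC and length trend and left out each library. That replicates came from separate mice is taken from the labels. Reads without molecular identifiers are not independent molecules.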

Additional observations from a re-analysis of the deposited data

How the results depend on the processing

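With 3 libraries a group, calls moved with the processing, and the cause was not tested unless stated. On FPKM, 5 genes were called, against 1 with no filter, 3 with a filter of 1 FPKM, 16 with array weights, 277 by voom and 0 with the replicate block; leaving out 1 library gave 0 to 2. Members called on FPKM were 0, and 1 by voom. On the reads, 277 genes were called, against 429 with summed reads as totals, 1737 with sample weights, 125 among genes with a GC value and 56 with the GC and length trend removed from those; leaving out 1 library gave 22 to 1058. Members called on the reads were 1, against 2 with summed reads, 4 with sample weights and 5 with the replicate block, and 0 to 5 with 1 library left out. Same-numbered libraries did not deviate together (r of -0.067, -0.087 and -0.035). Such values cannot tell whether equal numbers were paired, for they would miss a pairing with little effect on expression. The labels state no pairing, so the block is given as one more setting. Over all settings of single members, 238 kept their direction and side of the threshold, 16 passed it in addition, 1 lost it (Star without sedentary replicate 3) and 15 turned direction. Fold changes that turned were those of Insl3, Fdx1 and Lhcgr. With array weights Insl3 was 0.081 and Fdx1 0.066, with sample weights on the reads they were 0.086 and 0.061, and Fdx1 was 0.033 with the GC and length trend removed. With 1 library left out, Insl3 ran from -0.19 to 0.15 on FPKM and -0.19 to 0.15 on the reads, Fdx1 from -0.10 to 0.079 and -0.11 to 0.084, and Lhcgr from -0.33 to 0.070 and -0.38 to 0.085. The all-gene median was -0.09 under TPM scaling and 0.01 on FPKM, and no member turned. A GC value was found for 75.5% of tested genes, under 80%, so a GC check over all genes is void; all 10 members had one. Depth limits Lhcgr most.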

Other observations

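Several steroid enzymes outside the 10 genes lay under the filter on low values and were not tested. Those named here were picked after their values were seen, and the others are not described. Srd5a2, a 5-alpha-reductase that makes dihydrotestosterone, had 0.456, 0.372 and 0.622 FPKM in sedentary testes, against 0.209, 0.288 and 0.141 FPKM in control testes, on 43 sedentary and 18 control reads. Cyp11b2, the aldosterone synthase of the adrenal cortex, had 0.295, 0.163 and 0.236 FPKM in sedentary testes, against 0.644, 0.454 and 0.538 FPKM in control testes, on 39 sedentary and 91 control reads. The groups did not overlap for either gene, and they ran in opposite directions. Cyp7b1, another enzyme under the filter, was also lower without overlap, on 28 sedentary and 39 control reads. It had 0.111 to 0.136 FPKM in sedentary and 0.146 to 0.212 FPKM in control libraries. Of all tested genes, 24.5% had groups that did not overlap in either direction, so these separations on few reads are descriptions. Hsd11b1, which regenerates active glucocorticoid, had 0.151, 0.162 and 0.288 FPKM in sedentary testes and 0.320, 0.245 and 0.622 FPKM in control testes, on 75 sedentary and 144 control reads, with overlapping groups.

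Fat markers and epididymis markers had 4 and 2 tested genes. Of the fat markers 3 lay below 0 and of the epididymis markers 0, with 0 calls by either fit. Adipoq, the fat cell hormone, was at 8.56 ± 0.441 FPKM in sedentary and 8.61 ± 1.26 FPKM in control testes (SD, n = 3 each).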
